A study of Mus musculus with 9 samples.

Results

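The genes described here encode the classical axon guidance ligands and receptors: the ephrins and Eph receptors, the semaphorins with their plexin and neuropilin receptors, the Slits with the Robo receptors, and the netrins with the receptors Dcc and Unc5a to Unc5d. They were taken by symbol from the protein-coding genes of the GRCm38 annotation, which gave 69 genes of 55536 in the deposited gene tables, 35 of them ligands and 34 receptors. RNA was measured in 9 libraries of islet cells from C57B/L6 mice aged 12 weeks. All islets were cultured overnight, dispersed, stained and separated by FACS into 3 gates with 3 libraries each. Cells low for CD24 went to the alpha-enriched gate when CD71 was absent and to the beta-enriched gate when CD71 was present, and cells high for CD24 went to the delta-enriched gate. These are enriched gates and not pure cell types, and the labels do not say whether libraries of a subset came from separate mice or pools, so the tests measure the spread between these libraries, which may be technical.

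Axon guidance proteins steer growing nerve fibres by attraction or repulsion, and they are used again in blood vessels, immune cells and epithelia to place cells and set their contacts. Ephrins are themselves bound to the membrane, so that Eph signalling needs cell contact and can run into both cells, while class 3 semaphorins, Slits and netrins are secreted. In islets, Robo receptors are known for keeping the ordered arrangement of endocrine cell types, and EphA and ephrin-A proteins for signalling between neighbouring beta cells.

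The hormone genes followed the labels. The glucagon gene Gcg was at 78112 to 96574 TMM-scaled CPM (scaled CPM) in the alpha libraries, Ins2 at 21226 to 28401 in the beta libraries and Sst at 14396 to 20737 in the delta libraries. The delta libraries also held Gcg, at 1930 to 6003, and Ppy, which encodes pancreatic polypeptide, at 1476 to 2145, near the 1656 to 2409 of the alpha libraries. The alpha libraries held Ins2 at 2027 to 2772, against 65.3 to 390 in delta. What this adds to the alpha values of genes high in beta, such as Robo1 below, was not tested. Library totals ran from 5663141 to 9529920 expected counts. A ribosomal RNA locus held 34.4% of the counts of beta replicate 2 and 3.15% to 5.37% in the other libraries. The sum of 12 acinar markers was 2155 scaled CPM in delta replicate 3 and 15.3 to 286 in the other libraries. The 9 mesenchymal marker genes summed to 13.2 to 52.0 in alpha, 1.28 to 1.54 in beta and 3.41 to 9.12 in delta. Endothelial cells use many of these guidance genes, and their 9 markers had low sums, mostly Esam and Pecam1, with Plvap and Tie1 at 0 counts. The sums were 2.40 to 5.54 in alpha, 1.67 to 3.43 in beta and 5.33 to 9.12 in delta. Their part in the low values of genes high in delta was not tested. Of the 8 immune markers, which summed to 5.31 to 11.8, Ptprc, C1qb, Adgre1 and Cd3e were at 0 counts. The 8 Schwann markers summed to 73.4 to 99.4, mostly Mbp, with Sox10 at 0 to 0.385, and the 7 duct markers to 190 to 795, mostly Spp1 and Krt7, with Krt19 at 0 to 6.04. The duct marker Sox9 was at 17.6, 14.4 and 25.1 in delta, 0 to 1.13 in alpha and 0 in beta, so it ran with the delta-high genes below, and its part in those results was not tested.

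Of the 69 genes, 41 passed the filter on low counts and were tested, 23 ligands and 18 receptors. The other 28 stayed at or under 65 counts over all 9 libraries, with no subset mean above 2.31 scaled CPM. Without the filter 7 of them passed the test in some comparison. Dcc, Ephb3, Nrp1, Plxna4 and Slit3 were then lower and Epha5 higher in beta than in delta, Nrp1 was lower and Sema3f higher in beta than in alpha, and Sema3f was lower in alpha than in delta. In each of these the lower gate held 0 to 2 counts in all. Among the 28 were 9 of the 14 Eph receptors, including Epha4 (29 counts) and Epha5 (43 counts), and Dcc, the attractive netrin receptor (25 counts). Nrp1 (65 counts), Plxnd1, the usual receptor of the Sema3e protein (37 counts), and the endothelial Robo4 (10 counts) were there as well. Efna4 and Ephb1 had 0 counts in all libraries, which allows at most 0.0460 scaled CPM over the 9 libraries together. These limits, and those below, cover counting error only.

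Most of the tested guidance genes differed between the gates, and the delta-enriched subset held the larger share of the high values. At least 1 of the 3 comparisons passed in 30 of the 41 genes (44.0% of all tested genes), and all 3 passed in 11 (7.05%). The 30 were 16 of the 23 tested ligands and 14 of the 18 tested receptors. The median log2 fold change was -1.32 for beta minus delta, -0.59 for alpha minus delta and -0.40 for beta minus alpha, where the 15896 tested genes had medians of -0.02, -0.01 and -0.02. Between beta and delta 26 of the 41 differed (edgeR quasi-likelihood test, adjusted p under 0.05), where 30.6% of all tested genes did. Delta was the higher in 23 of them (15.3% over all genes) and beta in 3 (15.4%). Between alpha and delta 22 differed (24.3% over all genes), 17 with delta higher (13.3%) and 5 with alpha higher (11.0%). Between beta and alpha 22 differed (26.6%), 17 with alpha higher (11.9%) and 5 with beta higher (14.8%). The comparisons share libraries, so their counts are not separate evidence. A gene present in only 1 gate passes the filter through that gate and then has to differ, so the counts describe the genes that passed.

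In a joint test against both of the other gates, 15 genes were highest in delta (5.94% of all tested genes), 2 in alpha (3.18%) and 1 in beta (7.40%). Without delta replicate 3, the library with the highest acinar sum, 13 were highest in delta. The same number was left without alpha replicate 1, beta replicate 1 or 3, or delta replicate 2. Without delta replicate 3 and beta replicate 2 together it was 10. The lowest level was in beta for 13 genes (5.93% of all tested genes), in alpha for 4 (4.32%) and in delta for 3 (4.33%). Fewer cells of a type and less RNA per cell cannot be told apart in such bulk libraries. Between beta and alpha, 27 genes had libraries that did not overlap between the gates (45.5% over all genes), as was true of 27 between beta and delta (42.6%) and of 27 between alpha and delta (36.1%). On log2(TPM + 1) the split was 1 with beta higher and 7 with alpha higher for beta against alpha, and 6 with alpha higher and 10 with delta higher for alpha against delta. On log2(TPM + 0.1) it was 0 and 10 for beta against alpha. On these scales, in that order, the median over all genes moved by 0.12 and 0.17 in the beta to delta comparison and by 0.16 and 0.23 in the alpha to delta one, both toward lower values in delta.

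**Figure D1:**
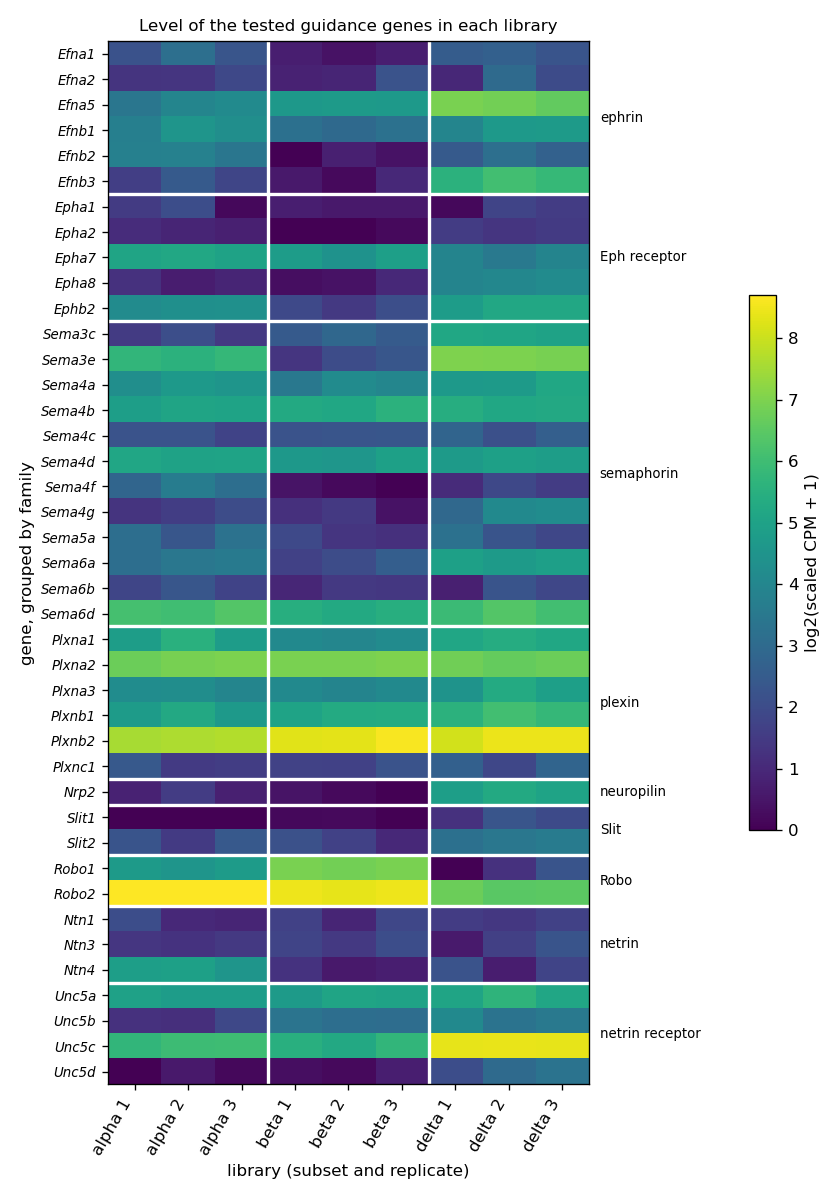
Level of the 41 tested genes, grouped by family, in each of the 9 libraries, as log2(scaled CPM + 1) in colour. Robo2 and Plxnb2 are bright in most columns, Unc5c, Sema3e and Efna5 are brightest in the delta columns, and Efnb2, Nrp2 and Sema4f are dark in the beta columns.

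**Figure D2:**
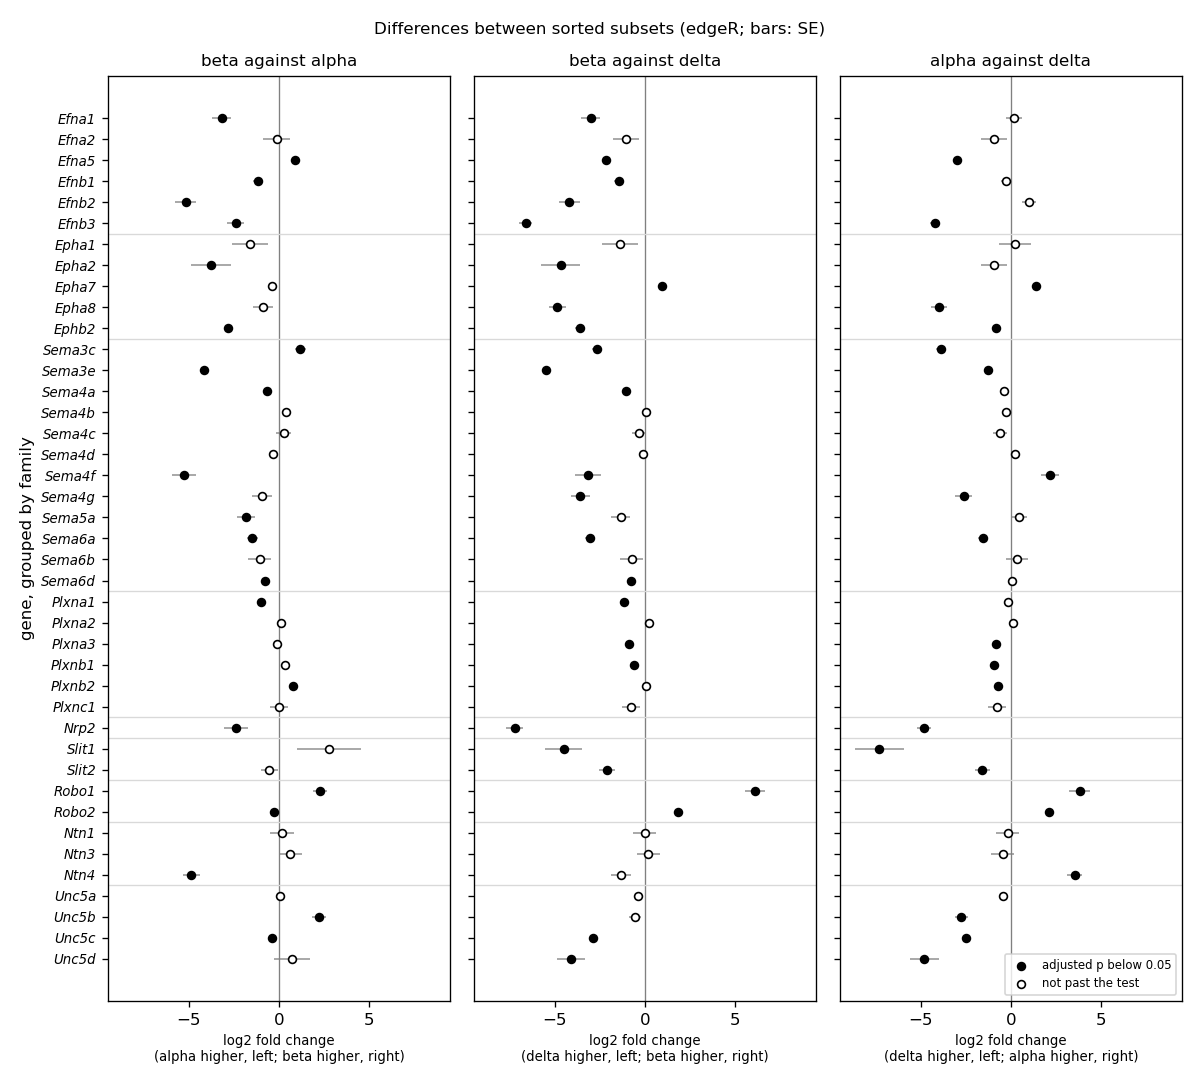
Log2 fold change and SE of the 41 tested genes in the 3 comparisons, with filled points for an adjusted p below 0.05. For beta against delta 23 filled points lie on the delta side and 3 on the beta side, and the fitted point of Slit1 against alpha depends on 0 counts in alpha.

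Per gene length, receptors had the highest levels. Robo2 was at 57.0 ± 10.7 TPM in alpha and 46.0 ± 9.34 in beta (mean ± SD of deposited TPM, n = 3), Plxnb2 at 22.2 ± 4.60 in alpha, 36.6 ± 10.3 in beta and 35.1 ± 13.9 in delta, and Unc5c at 23.1 ± 4.28 in delta. Efna5, at 12.8 ± 1.33 TPM in delta, had the highest mean of the ligands, above Sema3e at 9.46 ± 1.68 in delta. It did not stand apart from Sema4a, at 9.16 ± 6.25 in delta, beyond their SD, nor did Sema3e. Robo1 reached 12.4 ± 2.58 TPM in beta. These 5 genes, Robo1, Robo2, Plxnb2, Unc5c and Efna5, were those with a mean of 10 TPM or more in some gate.

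Among the tested guidance genes, promoter windows with many CG pairs were common. The RefSeq promoter table for GRCm38.p6 held 49 windows for 35 of the 41 tested genes. In the 250 bases before the start these windows had a median of 17 CG pairs and 65.6% G or C, against 6 CG pairs and 52.4% over all 32851 windows. At least 1 CG pair stood in 100% of the windows of tested guidance genes and in 92.1% of all windows. The full set also holds windows of genes under the filter on low counts. The comparison therefore does not show that guidance genes differ from other tested genes. The windows of 4 genes that were each highest in 1 gate are shown 5′ to 3′ with each CG in capitals: Unc5c and Sema3e (highest in delta), Robo1 (beta) and Ntn4 (alpha). All are on the plus strand, at chr3:141465314-141465563, chr5:14025026-14025275, chr16:72662899-72663148 and chr10:93640799-93641048 in that order.
Unc5c: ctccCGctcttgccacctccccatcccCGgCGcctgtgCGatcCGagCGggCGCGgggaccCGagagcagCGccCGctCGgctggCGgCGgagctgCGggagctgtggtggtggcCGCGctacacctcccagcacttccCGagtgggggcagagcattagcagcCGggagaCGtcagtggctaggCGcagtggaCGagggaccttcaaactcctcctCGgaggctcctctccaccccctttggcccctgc
Sema3e: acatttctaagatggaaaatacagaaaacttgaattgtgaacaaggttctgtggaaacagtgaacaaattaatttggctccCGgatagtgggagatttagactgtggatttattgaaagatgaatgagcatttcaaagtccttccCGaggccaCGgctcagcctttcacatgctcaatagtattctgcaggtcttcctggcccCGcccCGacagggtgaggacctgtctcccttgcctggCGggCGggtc
Robo1: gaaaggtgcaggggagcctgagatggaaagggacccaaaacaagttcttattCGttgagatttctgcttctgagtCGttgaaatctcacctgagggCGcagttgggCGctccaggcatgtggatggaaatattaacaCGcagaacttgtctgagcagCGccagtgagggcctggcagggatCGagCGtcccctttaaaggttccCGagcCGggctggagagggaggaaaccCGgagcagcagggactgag
Ntn4: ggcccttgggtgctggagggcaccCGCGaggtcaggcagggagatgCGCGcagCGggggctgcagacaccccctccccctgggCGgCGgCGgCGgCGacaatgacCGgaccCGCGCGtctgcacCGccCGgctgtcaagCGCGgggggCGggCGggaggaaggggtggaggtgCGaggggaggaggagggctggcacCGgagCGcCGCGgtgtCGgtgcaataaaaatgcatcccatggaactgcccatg
The Unc5c and Ntn4 windows hold 23 and 26 CG pairs and the Robo1 and Sema3e windows 11 and 7, so the windows of Unc5c and Sema3e, both highest in delta, differ in CG content. The Sema3e window ends just before the annotated gene start at 14025276. Those of Unc5c and Ntn4 begin shortly inside the annotated genes, which start at 141465216 and 93640681. The Robo1 window lies far inside its gene (chr16:72308306-73046095), at an internal start. The gene tables do not say which start was used.

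Among the ephrins, Efna5 and Efnb3 were highest in delta, and 4 of the 6 tested ligands were lowest in beta (5.93% of all tested genes). Efna5 (chromosome 17), a lipid-anchored ligand of EphA receptors, stood at 122, 113 and 95.5 scaled CPM in delta, 24.0, 25.4 and 24.8 in beta and 9.57, 14.4 and 16.8 in alpha. The gates did not overlap, and all 3 comparisons passed, with log2 fold changes of -2.15 (SE 0.17, adjusted p = 2.67e-08) for beta minus delta, -3.02 (SE 0.18, adjusted p = 1.04e-09) for alpha minus delta and 0.87 (SE 0.18, adjusted p = 0.00122) for beta minus alpha. Efnb3, a transmembrane ligand best known from the brain midline, was at 47.1, 66.2 and 56.3 scaled CPM in delta, 2.05, 4.53 and 2.54 in alpha and 0.514, 0.171 and 0.990 in beta. It was 98.1-fold higher in delta than in beta and 18.5-fold higher than in alpha by the fit.

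Efnb2, a transmembrane ligand of blood vessels and of EphB and EphA4 receptors, was nearly absent from the beta gate. It was at 12.9, 13.1 and 9.74 scaled CPM in alpha and 4.51, 8.01 and 5.53 in delta, while the beta libraries held 0, 4 and 2 counts. Beta was lower than alpha (-5.18, SE 0.57, adjusted p = 1.87e-06) and also lower than delta (-4.20, SE 0.58, adjusted p = 2.44e-05). Efna1 ran from 3.53 to 8.06 scaled CPM in alpha, 3.73 to 5.29 in delta and 0.343 to 0.660 in beta, with log2 fold changes of -3.18 (SE 0.54) and -3.01 (SE 0.54) for beta against alpha and delta. Efnb1 was at 12.4 to 21.9 in alpha, 14.5 to 25.6 in delta and 6.85 to 8.58 in beta (-1.15, SE 0.27, and -1.45, SE 0.27). The beta libraries were thus below every library of the other gates for Efna1, Efnb1 and Efnb2. Efna2 was low, at 0.770 to 6.96 scaled CPM, and passed in no comparison.

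Among the 5 tested Eph receptors, 2 were highest in delta (5.94% of all tested genes), 2 lowest in beta (5.93%) and 1 lowest in delta (4.33%). Epha7, a receptor of the ephrin-A class, was the only tested Eph receptor that was lowest in delta: 32.4, 36.5 and 31.5 scaled CPM in alpha, 26.8, 20.4 and 28.7 in beta and 14.2, 10.4 and 14.0 in delta. The delta level was the lowest in the joint test, with log2 fold changes of 1.37 (SE 0.19, adjusted p = 2.69e-05) for alpha and 0.97 (SE 0.19, adjusted p = 6.74e-04) for beta against delta. Alpha and beta differed by -0.40 (SE 0.18, adjusted p = 0.121). Epha7 and its ligand gene Efna5 thus had opposite orders between delta and the other gates.

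Epha8 and Ephb2 were highest in delta, and they lie 93.4 kb apart on chromosome 4. Epha8 was at 14.1, 15.3 and 17.1 scaled CPM in delta and at 0.257 to 1.37 in the 6 other libraries, with log2 fold changes of -4.87 (SE 0.48) for beta and -3.99 (SE 0.43) for alpha against delta. Ephb2, a receptor of the ephrin-B class, was at 26.8, 35.7 and 35.8 in delta, 17.4, 19.0 and 19.6 in alpha and 2.82, 1.71 and 3.30 in beta. Its gates did not overlap, and beta was lower than alpha (-2.82, SE 0.25, adjusted p = 1.33e-07) and than delta (-3.63, SE 0.25, adjusted p = 4.46e-09). Epha2 held 1 count over the beta libraries, against 22 in alpha and 38 in delta, which gives ratios to beta of 18.2 (95% exact counting interval 2.94 to 751) and 34.4 (5.82 to 1396). Epha1 passed in no comparison, and its exons overlap those of Zyx on the other strand.

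Some ephrin and Eph values rested on few counts in beta. Without beta replicate 2 or 1 the log2 fold change of Efnb2 was -6.20 or -4.51 against alpha and -5.21 or -3.52 against delta. Without beta replicate 3 the value of Efnb3 against alpha moved from -2.40 to -2.99, that of Epha8 against delta to -5.63, and those of Epha2 to -5.78 and -6.70. The call of Epha2 for beta against alpha was lost without alpha replicate 1 (adjusted p = 0.0666), beta replicate 1 (0.115) or beta replicate 2 (0.0992). The difference of Ephb2 between alpha and delta (-0.81, SE 0.20, adjusted p = 0.00633) was lost with an effective length offset (-0.50, adjusted p = 0.191), and that setting moved its difference between beta and delta to -3.01 and that of Epha2 between beta and alpha to -4.79. On log2(TPM + 1) the calls of Efna5 and Efnb3 for beta against alpha, of Efnb1 and Epha7 for beta against delta, of Ephb2 for alpha against delta and both of Epha2 were lost.

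The RSEM effective length, which averages over the isoforms assigned in a library, differed between gates for some of these genes, and so the order per length could differ from the order by counts. For Efnb1 it averaged 1793 bases in alpha, 2242 in beta and 2669 in delta. Delta therefore had more counts of Efnb1 than alpha on average but less per length, 3.68 ± 1.23 against 5.40 ± 2.15 TPM, and neither order held up (adjusted p = 0.438 for the counts). Ephb2 averaged 3780, 2951 and 4439 bases in alpha, beta and delta. No isoform values were used, so the isoforms behind these lengths were not tested.

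**Figure D3:**
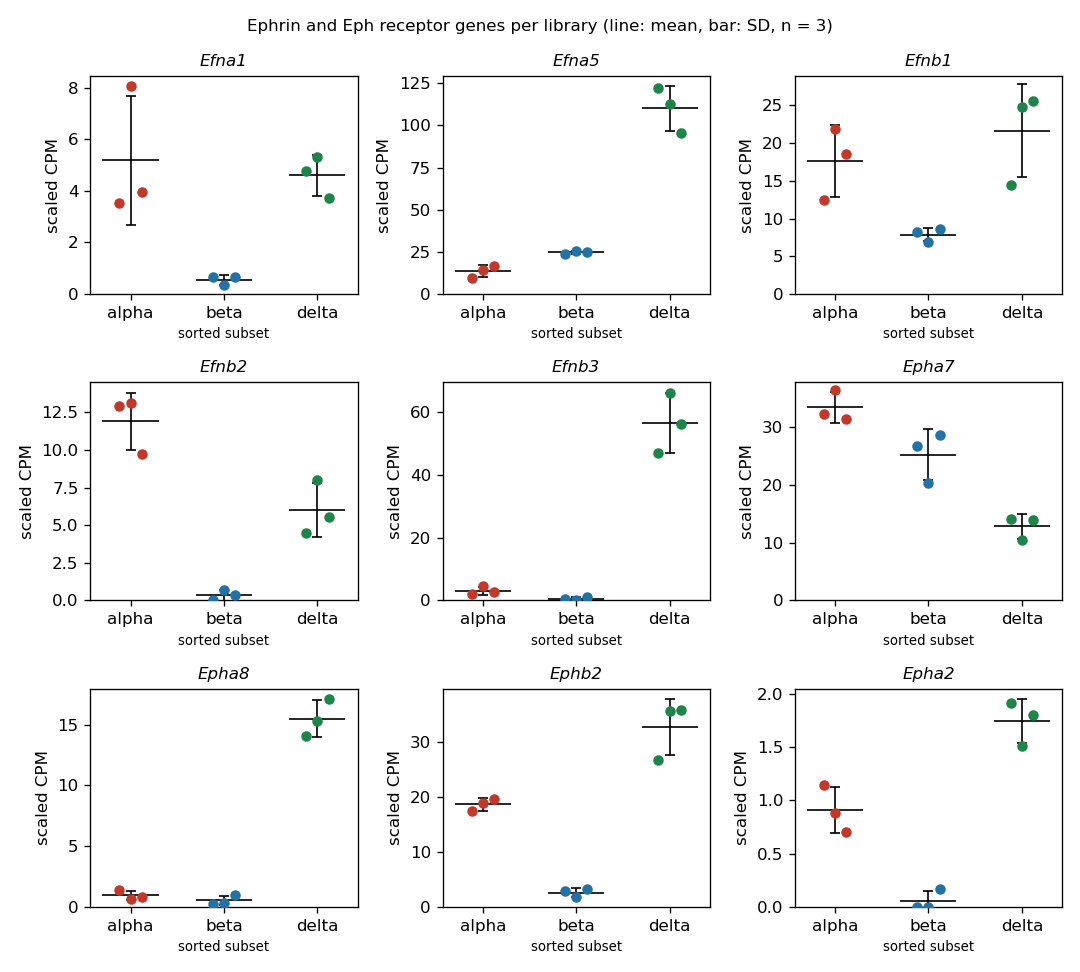
Scaled CPM of 9 ephrin and Eph receptor genes per library, with points for libraries, a line for the mean and a bar for the SD (n = 3 per gate). Efna5, Efnb3, Epha8 and Ephb2 are highest in delta, and Epha7 is lowest in delta. Efna1, Efnb1, Efnb2, Efnb3, Epha2 and Ephb2 are lowest in beta.

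Of the 12 tested semaphorins, 4 were highest in delta (5.94% of all tested genes) and 4 lowest in beta (5.93%), and Sema3e and Sema6a were in both sets. Sema3e, a secreted semaphorin of vessel patterning, was at 129, 125 and 118 scaled CPM in delta, 51.7, 47.1 and 54.3 in alpha and 1.54, 3.08 and 3.96 in beta. The spread within a gate was far smaller than the steps between gates, with log2 fold changes of -5.47 (SE 0.21, adjusted p = 3.01e-12) for beta and -1.28 (SE 0.15, adjusted p = 5.06e-06) for alpha against delta and of -4.19 (SE 0.21, adjusted p = 9.87e-11) for beta against alpha. Its neighbours on chromosome 5, Sema3a at a distance of 422.7 kb and Sema3d beyond it, had 33 and 9 counts in all libraries together and were not tested.

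Sema3c, a secreted semaphorin that binds neuropilins, was at 35.1, 33.4 and 31.5 scaled CPM in delta, 4.49, 6.51 and 4.62 in beta and 1.82, 3.27 and 1.69 in alpha. Delta was 6.42-fold above beta and 14.6-fold above alpha. Nrp2, a neuropilin that class 3 semaphorins use as coreceptor, had the same gate on top, at 28.4, 38.1 and 31.9 in delta against 0.705 to 1.89 in alpha and 0 to 0.385 in beta. Its log2 fold changes were -7.23 (SE 0.48, adjusted p = 3.34e-09) for beta and -4.83 (SE 0.37, adjusted p = 2.53e-08) for alpha against delta. Secreted class 3 ligands and the coreceptor gene were high in the same delta libraries, while Nrp1 and Plxnd1 stayed under the filter.

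Of the membrane-bound semaphorins, Sema6a and Sema4g were highest in delta. Sema6a was at 29.4, 25.6 and 28.9 scaled CPM in delta, 7.86, 9.82 and 10.7 in alpha and 2.18, 3.08 and 5.12 in beta, and it differed in all 3 comparisons (-3.03, SE 0.28, for beta and -1.56, SE 0.25, for alpha against delta, and -1.47, SE 0.29, for beta against alpha). Sema4g was at 6.69, 16.3 and 17.7 in delta and 0.330 to 3.10 in the others (-3.59, SE 0.52, and -2.63, SE 0.48). The delta libraries of Sema4g varied among themselves and still lay above all others.

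Sema4f was 1 of only 2 guidance genes that were highest in alpha. It was at 6.15, 11.6 and 7.76 scaled CPM in alpha, 1.09, 2.72 and 1.93 in delta and 0.385, 0.171 and 0 in beta, where the libraries held 3, 1 and 0 counts. The log2 fold changes were -5.29 (SE 0.67) for beta against alpha and 2.15 (SE 0.50, adjusted p = 0.00426) for alpha against delta. The sum of the mesenchymal markers was also highest in alpha, led by replicate 2 (52.0), where Sema4f had its highest value. Without alpha replicate 2 the difference from delta was 1.87 (adjusted p = 0.0444) and that from beta -5.01. The other alpha libraries still had higher mesenchymal sums (13.2 and 16.6) than any beta or delta library, so the part of mesenchymal RNA was not tested.

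Sema4a and Sema6d differed less, and Sema5a passed only between beta and alpha. Sema6d, a transmembrane semaphorin, was at 65.0 to 81.7 in alpha, 60.4 to 82.3 in delta and 37.9 to 42.9 in beta, which was lower than alpha (-0.80, SE 0.14, adjusted p = 2.75e-04) and delta (-0.75, SE 0.14, adjusted p = 4.21e-04). Sema4a was at 10.1, 17.1 and 14.9 in beta, 18.5, 25.2 and 22.3 in alpha and 24.6, 25.6 and 35.1 in delta, with beta lower than delta (-1.03, SE 0.22, adjusted p = 0.00159). Sema5a was at 2.82, 1.54 and 1.32 in beta, 7.75, 4.03 and 8.61 in alpha and 8.47, 3.78 and 2.57 in delta. Sema4b, Sema4c, Sema4d, which encodes a ligand of plexin-B receptors, and Sema6b passed in no comparison.

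The plexins, the signalling receptors of semaphorins, differed by small folds: 4 of the 6 tested passed in at least 1 comparison (44.0% of all tested genes), by at most 2.23-fold (Plxna1). Plxnb2 was at 317, 324 and 387 scaled CPM in beta, 274, 348 and 349 in delta and 189, 194 and 208 in alpha. Alpha was lowest, by 0.80 (SE 0.11, adjusted p = 2.17e-05) against beta and 0.72 against delta (log2 fold change -0.72, SE 0.11, adjusted p = 8.17e-05), and beta and delta did not differ beyond their spread (0.08, SE 0.11, adjusted p = 0.619). Plxna2 ran from 98.4 to 129 over all 9 libraries and passed in no comparison, with log2 fold changes between 0.10 and 0.25 and SEs of 0.10. Plxnc1, at 1.76 to 6.04, passed in none either.

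Plxna1, a coreceptor partner of neuropilins, was lowest in beta, at 16.4, 14.9 and 17.5 scaled CPM against 27.8, 44.7 and 26.8 in alpha and 34.0, 40.4 and 34.9 in delta (-1.02, SE 0.20, and -1.16, SE 0.20). An antisense gene, Gm26811, overlaps its exons with 96 counts to 1898, and since the counting is not stated to use strand the 2 cannot be told apart there. Plxna3 and Plxnb1 were highest in delta by less than 2-fold. Plxna3 was at 21.2 to 38.9 in delta, 14.5 to 18.1 in alpha and 14.2 to 16.5 in beta, and Plxnb1 at 47.1 to 66.1, 24.5 to 36.9 and 31.7 to 39.3.

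Several of the semaphorin, neuropilin and plexin differences depended on a library or the scale. For beta against alpha, Sema4a (-0.65, adjusted p = 0.0368) was lost without alpha replicate 2 (adjusted p = 0.147) or 3 (0.0905) or beta replicate 1 (0.202) or 3 (0.0757), Sema5a (-1.81, adjusted p = 0.0123) without alpha replicate 3 (0.0577) or beta replicate 2 (0.0580) or 3 (0.0630), and Nrp2 (-2.39, adjusted p = 0.0131) without alpha replicate 2 (0.0829) or beta replicate 3 (0.0569). Plxna3 for alpha against delta (-0.81, adjusted p = 0.00897) was lost without alpha replicate 3 (0.0515) or delta replicate 2 (0.0544), and Plxnb1 for beta against delta (-0.60, adjusted p = 0.0134) without beta replicate 1 (0.0834) or delta replicate 2 (0.0622). Sema3c for beta against alpha (1.19, adjusted p = 0.00591) was lost without beta replicate 2 and delta replicate 3 together (0.99, adjusted p = 0.0593). Without beta replicate 1, Nrp2 moved to -3.50 against alpha and -8.33 against delta, and Sema4f to -6.39 and -4.24. With an effective length offset the calls of Plxna1 and Plxnb1, of Sema3c and Sema4a for beta against alpha were lost, and Sema3c for alpha against delta moved from -3.87 to -2.95. On log2(TPM + 1) the calls of Plxna1, Plxnb1, Plxnb2, Sema4a, Sema5a and Sema6d were lost, with those of Nrp2 and Sema3c for beta against alpha, Plxna3 and Sema4f for beta against delta, Sema3e for alpha against delta and Sema6a for alpha against delta and beta against alpha.

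**Figure D4:**
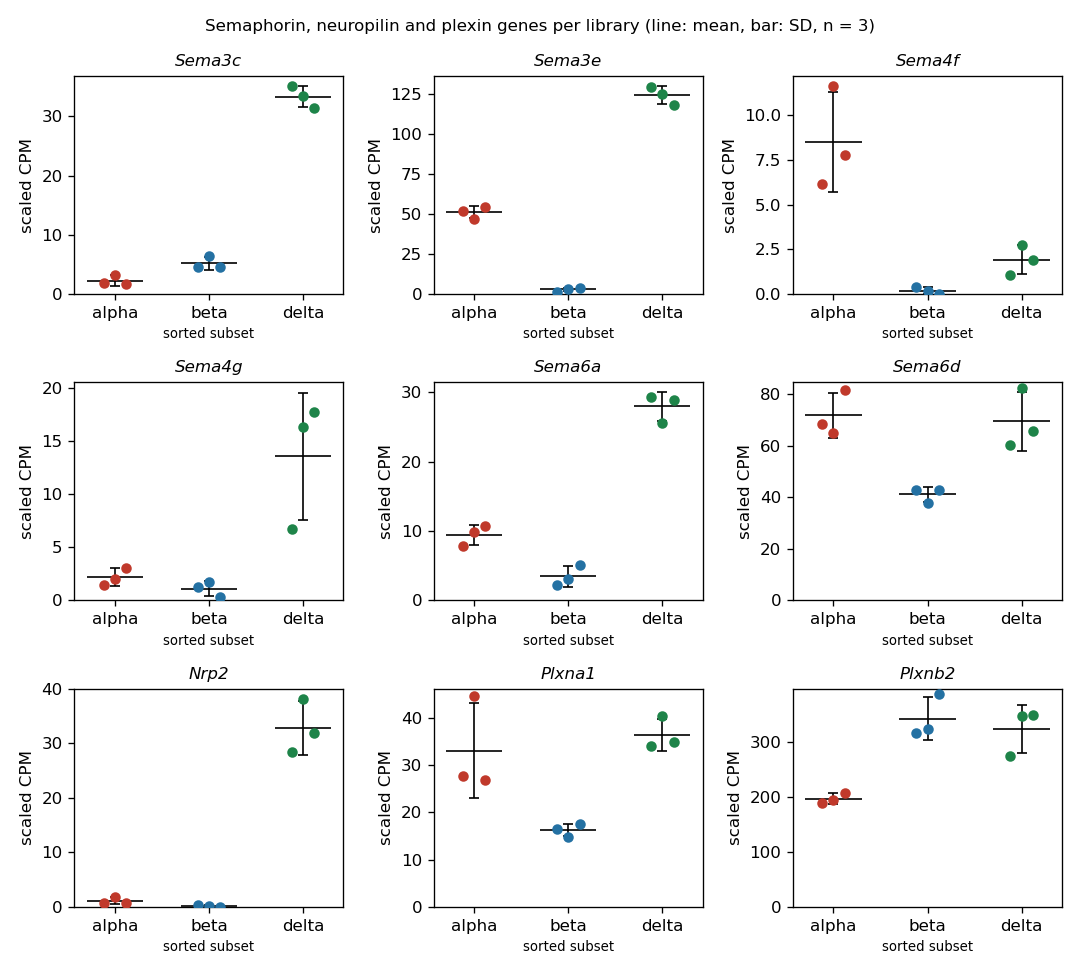
Scaled CPM of 9 semaphorin, neuropilin and plexin genes per library, with points for libraries, a line for the mean and a bar for the SD (n = 3 per gate). Sema3c, Sema3e, Sema4g, Sema6a and Nrp2 are highest in delta, Sema4f is highest in alpha, and Plxnb2 is lowest in alpha.

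The Robo receptors were the main exception to the delta side. Robo1 and Robo2, which bind Slit proteins, lie 845.7 kb apart on chromosome 16 and were both lowest in delta, but they differed between alpha and beta. Robo1 was at 123, 113 and 123 scaled CPM in beta, 25.6, 21.9 and 26.1 in alpha and 0, 1.36 and 3.73 in delta, where the libraries held 0, 9 and 29 counts. Beta was 4.86-fold above alpha (2.28 on the log2 scale, SE 0.41, adjusted p = 0.00447) and 68.1-fold above delta (6.09, SE 0.55, adjusted p = 9.14e-05). Robo1 was the only tested guidance gene that was highest in beta in the joint test.

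Robo2 was abundant in both CD24-low gates. It was at 406, 413 and 413 scaled CPM in alpha, 352, 328 and 354 in beta and 107, 87.5 and 90.3 in delta, with little spread and no overlap. Alpha was 4.33-fold above delta (2.11, SE 0.09, adjusted p = 4.03e-11) and beta 3.63-fold (1.86, SE 0.09, adjusted p = 8.99e-11). The step between beta and alpha was small (-0.25, SE 0.09, adjusted p = 0.0459). Robo3 and Robo4 had 11 and 10 counts in all.

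The Slit ligands were low, and highest in the gate with the least Robo. Slit2 was at 8.33, 9.98 and 11.3 scaled CPM in delta, 3.76, 1.76 and 4.37 in alpha and 3.47, 2.23 and 0.990 in beta, with log2 fold changes of -1.58 (SE 0.43, adjusted p = 0.0116) for alpha and -2.11 (SE 0.45, adjusted p = 0.00141) for beta against delta. Slit1 was at 1.37, 3.93 and 2.83 in delta, from 10, 26 and 22 counts. It had 0 counts in alpha, so delta was at least 21.2-fold higher, taking 3 counts over the alpha libraries as the floor, and 2 counts in beta, for a ratio of 26.3 (95% exact counting interval 6.95 to 222). Slit3, with 39 counts in all, was not tested.

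Among the netrins, Ntn4 was the alpha gene. Ntn4, a secreted laminin-related netrin of basement membranes, was at 28.1, 29.5 and 22.4 scaled CPM in alpha, 3.69, 0.605 and 2.44 in delta and 1.41, 0.514 and 0.660 in beta. The alpha libraries lay far above all others, with log2 fold changes of 3.54 (SE 0.41, adjusted p = 5.02e-06) against delta and -4.86 (SE 0.47, adjusted p = 5.40e-07) for beta against alpha. Without alpha replicate 2, the library with the highest mesenchymal marker sum, these were 3.48 and -4.80. The other alpha libraries, at sums of 13.2 and 16.6, still lay above all beta and delta libraries. The part of mesenchymal RNA in Ntn4 was therefore not tested. Ntn1, the classical floor plate netrin, stood at 0.847 to 3.19 and passed in no comparison, and neither did Ntn3, which shares exon bases with the far more abundant Tbc1d24 on its strand.

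The netrin receptors of the Unc5 family, which mediate repulsion, included Unc5a and Unc5c, found in all gates, while Dcc had 25 counts over all libraries. Unc5c was at 329, 337 and 331 scaled CPM in delta, 51.4, 61.2 and 62.5 in alpha and 44.2, 37.4 and 52.3 in beta, where the last 2 gates overlapped. Delta was 7.45-fold above beta (-2.90, SE 0.12, adjusted p = 1.34e-11) and 5.70-fold above alpha (-2.51, SE 0.12, adjusted p = 1.01e-10). Unc5d was at 3.14, 7.11 and 8.99 in delta and 0 to 0.660 elsewhere (-4.10, SE 0.79, for beta and -4.81, SE 0.82, for alpha against delta). Unc5b was lowest in alpha, at 1.37, 1.26 and 2.68, against 9.25, 7.88 and 7.59 in beta and 16.4, 8.92 and 10.4 in delta (2.23, SE 0.38, for beta against alpha and -2.76, SE 0.37, for alpha against delta). Unc5a, at 25.7 to 49.6 over all libraries, passed in no comparison.

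A few of these values moved when a library was left out. Without delta replicate 3, which held 29 of the 38 delta counts of Robo1 and the highest acinar sum, Robo1 was at 7.49 for beta and 5.21 for alpha against delta, and without delta replicate 1 the latter was 3.22. The difference of Robo2 between beta and alpha was lost without any 1 alpha or beta library or without delta replicate 3 (log2 fold change -0.23 to -0.27, adjusted p = 0.0586 to 0.169), and that of Unc5c (-0.39, adjusted p = 0.0240) without alpha replicate 2 (0.0894) or 3 (0.101) or beta replicate 1 (0.0771) or 2 (0.129). Slit2 for alpha against delta was lost without alpha replicate 2 (-1.27, adjusted p = 0.0624), Ntn4 for beta against alpha moved to -5.46 without beta replicate 1, and Unc5d moved to -4.20, -6.29 and -4.76 without alpha replicate 1, alpha replicate 2 and beta replicate 3. With an effective length offset Robo1 was at 5.29 and 3.18 and Unc5d at -4.15 for alpha against delta, and Robo2 and Unc5c lost the call for beta against alpha. On log2(TPM + 1) those 2 calls and those of Slit1, Unc5b for beta against alpha and Unc5d were lost, and on log2(TPM + 0.1) those of Robo1 for beta against alpha and Slit2 for beta against delta.

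**Figure D5:**
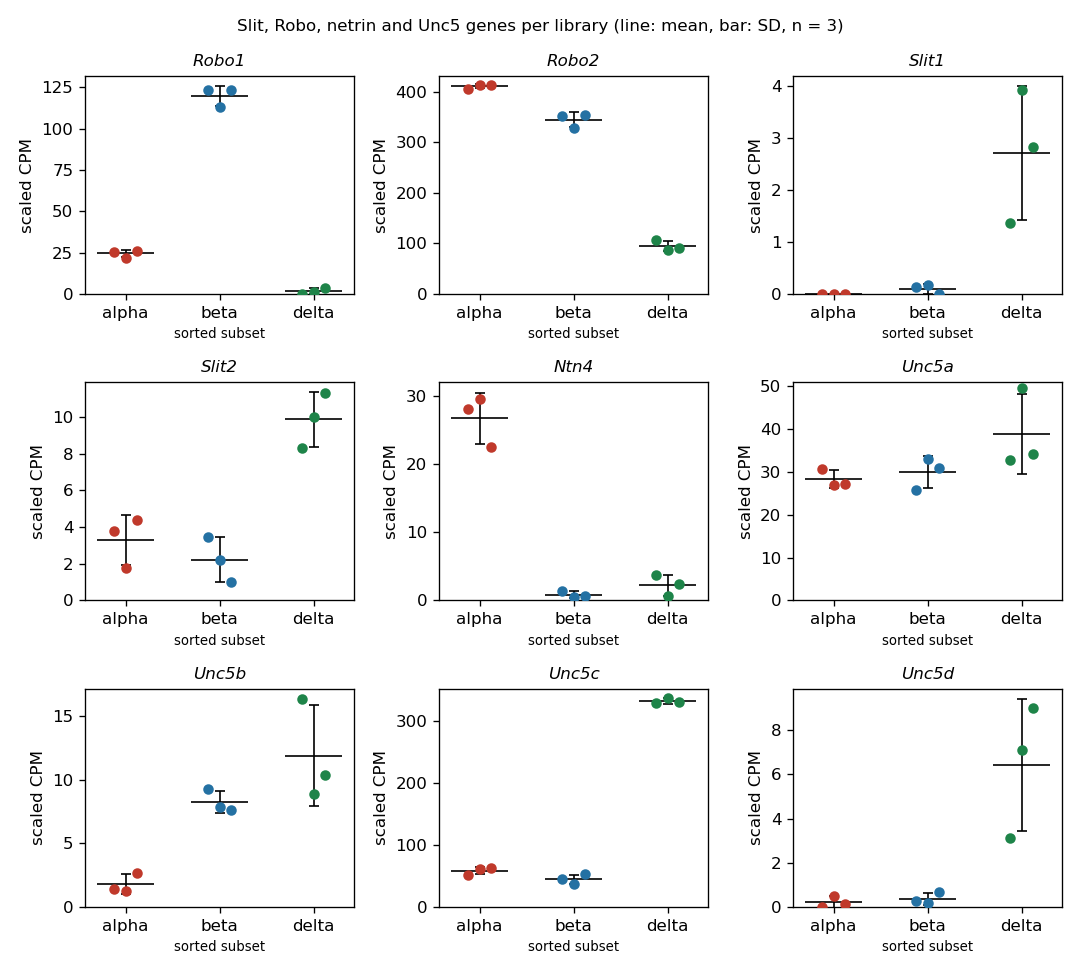
Scaled CPM of 9 Slit, Robo, netrin and Unc5 genes per library, with points for libraries, a line for the mean and a bar for the SD (n = 3 per gate). Robo1 is highest in beta and near 0 in delta, Robo2 is lowest in delta, Slit1, Slit2, Unc5c and Unc5d are highest in delta, and Ntn4 is highest in alpha.

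Other cues and receptors of the same kind, from a list of 25 genes, went both ways. Of the 17 that were tested, 5 were higher and 7 lower in beta than in alpha (26.6% of all tested genes were called in either direction), 5 higher and 5 lower in beta than in delta (30.6%), and 5 higher and 4 lower in alpha than in delta (24.3%). The median log2 fold changes were -0.48, -0.15 and -0.08. Dscam, an adhesion receptor that also binds netrin, was at 89.4 ± 20.5 scaled CPM in delta, 4.31 ± 1.43 in alpha and 0.198 ± 0.0513 in beta (-8.66, SE 0.37, for beta and -4.38, SE 0.24, for alpha against delta). Met, the receptor of hepatocyte growth factor, was also higher in delta (124 ± 5.76) than in alpha (39.8 ± 5.93) or beta (44.4 ± 3.73). Cntn1, a contactin, and Ret, the receptor of glial neurotrophic factors, were higher in beta. Cntn1 was at 131 ± 26.9 in beta, 47.1 ± 4.53 in delta and 17.3 ± 3.78 in alpha, and Ret at 158 ± 8.10, 70.5 ± 11.2 and 58.0 ± 6.21. Flrt1, an adhesion protein, was lower in alpha (11.0 ± 1.90) than in beta (43.3 ± 7.26) or delta (48.3 ± 5.81), and Lrig1 lower in beta (11.1 ± 1.54) than in alpha (55.7 ± 12.2).

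Genes for the intracellular partners of these receptors showed no common side in their medians. Of 49 tested genes of a list of 52, 6 were higher and 9 lower in beta than in alpha (26.6% of all tested genes in either direction), 7 higher and 14 lower in beta than in delta (30.6%), and 13 higher and 10 lower in alpha than in delta (24.3%). The share called was thus near that of all genes between beta and alpha and above it between beta and delta and between alpha and delta. Between beta and delta more of the called genes were higher in delta. The medians were -0.07, 0.01 and 0.01. Srgap3, of a family that binds Robo receptors, was low in beta at 2.16 ± 0.246 scaled CPM, against 35.7 ± 3.92 in alpha and 43.0 ± 10.3 in delta (-4.03, SE 0.24, and -4.29, SE 0.24). Its relative Srgap2 was at 57.0 ± 7.93 in alpha, 20.2 ± 3.20 in beta and 20.6 ± 4.07 in delta. Dock1, a Rac activator, was at 83.7 ± 7.75 in delta, 17.6 ± 4.09 in alpha and 7.13 ± 1.91 in beta, and the kinase gene Pak1 was higher in delta than in alpha (log2 fold change -3.16, SE 0.25) and beta (-2.69, SE 0.24). Dpysl3, of the collapsin response mediators, was also higher in delta (14.2 ± 1.41) than in alpha (1.70 ± 0.977) or beta (3.62 ± 0.601). Trio, an exchange factor used by netrin receptors, was at 370 ± 25.4 in beta and 190 ± 18.9 in delta, Arhgef12, which binds plexin-B receptors, at 579 ± 37.9 in beta and 373 ± 11.1 in alpha, and Pak3 at 427 ± 19.5 in alpha and 211 ± 34.8 in beta. The calls of Arhgef12 between beta and alpha and of Dscam between beta and alpha were lost on log2(TPM + 1).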

How the data were processed

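RNA of 9 libraries from sorted mouse islet cells was measured by paired-end sequencing with a strand-marking, randomly primed kit, per the labels' protocols. Per the submitters' processing notes, which give no roles, the build was GRCm38.p6 and the tools included RSEM, DESeq2 1.22.1, R 3.5.1 and STAR 2.5.2b. The deposited tables hold RSEM expected counts and TPM per gene, per the file headers, and effective lengths in bases. RSEM shares reads among genes, and 6.94% to 8.66% of genes per library had a count that was not whole (3 of the tested members). The authors' normalised table was not used.

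Gene symbols came from GENCODE M21, which matched all 55536 gene IDs. The genes and lists were chosen with earlier results of these data known. Expected counts were rounded, filtered with filterByExpr and fitted for all 9 libraries in edgeR 4.0.16 (R 4.3.3; TMM, robust quasi-likelihood, 1 coefficient per gate, 2-sided, Benjamini-Hochberg over 15896 genes, threshold 0.05). Every adjusted p is from that fit unless another setting is named. SE, that of a log2 fold change, was derived as its absolute value over the square root of the quasi-likelihood F. The joint test adjusts the larger of the 2 raw p-values. Scaled CPM is the rounded count over the TMM-scaled library size, in CPM. Genes with values in every library were those called at an absolute log2 fold change of 1 or more with 5 CPM or more in the higher gate, or at 10 TPM or more, and up to 4 called genes per pathway list and comparison were named. The further genes were named after their values were seen. A count of 0 was bounded with 3 counts. Alternatives were other scaling, DESeq2 1.42.0, limma 3.58.1 on log2(TPM + 1) and log2(TPM + 0.1), other filters, a length offset, a fold threshold, a replicate block and left-out libraries.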

Additional observations from a re-analysis of the deposited data

How the results depend on the processing

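No result of the 41 genes that was called in the main fit or in the alternative changed direction. Of 2538 results of single genes under an alternative, 2382 kept their side of the threshold, 131 lost the call and 25 gained it. A change of sign with no call in either fit counted among the 2382. On log2(TPM + 1), 8 genes were called for beta against alpha and 15 between beta and delta, and on log2(TPM + 0.1) 10 and 17. Against a log2 fold change of 1 it was 9 for beta against alpha and 13 for alpha against delta. By direction, log2(TPM + 1), log2(TPM + 0.1) and the fold threshold gave 1, 0 and 2 with beta higher and 7, 10 and 7 with alpha higher for beta against alpha. Between beta and delta the TPM scales gave 13 and 15 with delta higher. For alpha against delta, 10 with delta higher remained on log2(TPM + 1), and 10 with delta and 3 with alpha higher against the fold threshold. Genes highest in 1 gate numbered 10 in each of these 3 settings, those highest in delta 7, 8 and 9, and those lowest in beta 3, 5 and 6. The cause was not tested; the same settings called 1765, 1819 and 1211 genes in place of 4231 over all genes in the first comparison, 2446, 2480 and 1468 in place of 4869 between beta and delta, and 1807, 1782 and 1039 in place of 3868 for alpha against delta.

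Leaving out 1 library gave 18 to 24 called for beta against alpha (5 to 6 with beta and 13 to 18 with alpha higher), 26 to 33 for beta against delta (3 to 4 and 23 to 29) and 22 to 25 for alpha against delta (5 to 6 and 16 to 20). It gave 16 to 19 highest in 1 gate, 13 to 15 in delta, and 10 to 15 lowest in beta. Leaving out both beta replicate 2 and delta replicate 3 gave 18, 27 and 21 called in the order above, 13 highest in 1 gate, 10 in delta and 10 lowest in beta. The joint test was not run on the fits of 2 gates. Replicate numbers share no stated source, and the deviations of the 9 same-numbered pairs of libraries correlated by 0.001 to 0.112, against -0.102 to 0.021 for the 18 other pairs. Of the 9, 8 lay above all others, a hint of pairing from the data and not the design, but beta and delta replicate 2 did not correlate best with each other. With the number as a replicate block the counts were 22, 27 and 22, and 19 highest in 1 gate, the 1 gene gained for beta against delta being Sema5a (-1.32, adjusted p = 0.0355). Without the filter on low counts 34 genes were called between beta and delta (30 with delta higher), which adds Ntn4, Sema5a and 6 genes under the filter. Depth limits the genes under the filter, which have 65 counts or fewer.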
